A study of Homo sapiens with 24 samples.

Results

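GPER1 and the nuclear estrogen receptor genes ESR1, ESR2, ESRRA, ESRRB and ESRRG were examined in U251 cells, an established human glioblastoma (GBM) line, by taking every microarray probe whose RefSeq transcript belongs to one of these 6 genes. Of 24847 gene symbols matched to the array, 5 were among them, with 12 of its 58201 probes: 4 for GPER1, 3 for ESR1, 2 for ESR2, 2 for ESRRA and 1 for ESRRG. No probe was matched to ESRRB. RNA was measured on 24 one-colour arrays in 6 groups of 4 independent biological replicates: DMSO (the solvent control), G-1 at its IC50 dose and G-1 at 1 µM, each for 24 h and for 72 h. All cells, the DMSO controls included, had been kept without steroid hormones in charcoal-stripped serum for 24 h before treatment, and all come from 1 line, so the replicates do not stand for different tumors. The IC50 dose lay below 1 µM by the methods of the study. Durations were taken from the sample titles, since another label entry states the opposite one for 24 h of G-1 IC50 and for 72 h of G-1 1 µM.

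GPER1 is a G protein-coupled receptor that responds to estrogen at membranes, where it raises cyclic AMP and releases EGF-type growth factors. G-1 was made as its agonist. ESR1 and ESR2 encode the estrogen receptors alpha and beta, transcription factors that bind estradiol and then estrogen response elements in DNA. ESRRA, ESRRB and ESRRG encode the estrogen-related receptors, which resemble them in sequence but do not bind estradiol, and which drive genes of mitochondrial energy metabolism together with coactivators of the PGC-1 family. Astrocytes and glioma cells are known as places of local estrogen synthesis by aromatase.

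The arrays lay on 3 slides. The third slide, from a later scan session, held all 8 arrays of G-1 1 µM and nothing else, whereas DMSO and G-1 IC50 arrays shared the first and second slides. Scan session and dose hence cannot be told apart where G-1 1 µM is set against DMSO or G-1 IC50 at the same duration. The comparison of 72 h with 24 h within G-1 1 µM stays on 1 slide, and the duration interaction (the change against DMSO at 72 h minus that at 24 h) cancels any offset that is the same at both durations. On arrays of the earlier session, 41.1% to 44.5% of spots were well above background, and on those of the later session 38.0% to 40.7%. The 9 markers of glial and glioma cells, GFAP and SOX2 among them, were above background on all 24 arrays, the epithelial markers EPCAM and CDH1 and the immune markers PTPRC and CD3E on 0 of 24. The luminal epithelial genes FOXA1, GATA3 and KRT8 were above background on 24 arrays each. The 3 neuron markers were above background on 24 arrays each, and the myelin genes MBP and MOG on 24 and 17.

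The promoter sequences of the genes with a measurable signal are shown because GPER1 has a pair of annotated start sites whose upstream sequence differs in CG content. They are the 250 bases before each RefSeq start on GRCh38.p14, plus strand, with each CG in capitals. The upstream GPER1 window, chr7:1086868-1087117, held 18 CG, the downstream one, chr7:1087863-1088112, held 3, and that of ESRRA, chr11:64305274-64305523, held 35. Over 35116 promoter windows of this length in the RefSeq set, the median was 11 and 93.94% held at least 1. Windows with at least 18 made up 36.78%, with at least 3 made up 77.14%, and with at least 35 made up 5.8%.
GPER1 upstream: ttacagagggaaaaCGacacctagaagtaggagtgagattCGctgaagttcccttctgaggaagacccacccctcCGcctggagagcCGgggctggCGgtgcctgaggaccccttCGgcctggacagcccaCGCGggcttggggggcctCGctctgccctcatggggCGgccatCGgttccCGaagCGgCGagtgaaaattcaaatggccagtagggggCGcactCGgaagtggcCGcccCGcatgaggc
GPER1 downstream: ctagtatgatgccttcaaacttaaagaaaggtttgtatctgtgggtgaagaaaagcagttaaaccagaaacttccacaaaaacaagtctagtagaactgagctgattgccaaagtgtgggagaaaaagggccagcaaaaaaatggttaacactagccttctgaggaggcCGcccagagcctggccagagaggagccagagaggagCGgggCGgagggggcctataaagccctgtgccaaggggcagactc
ESRRA: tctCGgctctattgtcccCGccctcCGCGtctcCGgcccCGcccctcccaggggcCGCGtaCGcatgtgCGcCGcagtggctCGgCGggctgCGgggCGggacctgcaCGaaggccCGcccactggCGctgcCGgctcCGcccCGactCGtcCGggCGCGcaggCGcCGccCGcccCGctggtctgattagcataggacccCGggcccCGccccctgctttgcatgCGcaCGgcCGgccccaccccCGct

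The nuclear receptor hexamer AGGTCA was searched on both strands of the 300 bases from 250 before to 50 after each start. It was found in 3 of 5 ESR2 windows and 2 of 8 ESRRG windows, and in 0 of 2 for GPER1, 0 of 6 for ESR1, 0 of 1 for ESRRA and 0 of 3 for ESRRB, against 13.8313% of 35116 promoters. The extended form TCAAGGTCA, which contains the hexamer and is preferred by the estrogen-related receptors, was in 0.3531% of all promoters and the palindromic estrogen response element in 0.0028%. Neither was in a window of the 6 genes. Overlapping windows of one gene share bases, and a match is only a match of letters.

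Detection separated the genes first. A probe counted as detected where Feature Extraction marked its spot as well above the local background. GPER1 and ESRRA were detected in all 6 groups, while ESR1 and ESR2 were not well above background on any array. The 3 ESR1 probes had processed signals (background-subtracted fluorescence intensity) from 3.22 to 6.27, from 3.1 to 6.13 and from 2.82 to 9.37 over the 24 arrays. The ESR2 probes ranged from 2.84 to 8.32 and from 2.71 to 5.22. The lowest detected signal of any probe on the same arrays lay at 13.0 to 16.6 for slides 1 and 2 and at 16.1 to 24.8 for slide 3, so these ranges give only an upper bound and no level to compare between groups. ESRRG was detected on 2 of 24 arrays, DMSO 72 h replicate 1 with a signal of 18.2 and G-1 IC50 24 h replicate 2 with 21.8. On the other arrays its signal ran from 3.17 to 19.7.

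Signals of different probes are not on one scale, because each probe binds with its own strength. The dimmer probes still show where a value is close to the limit. Of the GPER1 probes, A_23_P8640, A_33_P3345816 and A_33_P3345812 were detected on 24 of 24 arrays and A_33_P3356752 on 18, namely on 4 of 4 arrays of DMSO 24 h and of both G-1 IC50 groups, and on 2 of 4 arrays of DMSO 72 h and of both G-1 1 µM groups. Both ESRRA probes were detected on 24 of 24. The 4 GPER1 and 2 ESRRA probes passed the filter for testing (detected on all 4 arrays of at least 1 group), as did 22970 probes in all, and the 6 probes of ESR1, ESR2 and ESRRG did not.

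**Figure D1:**
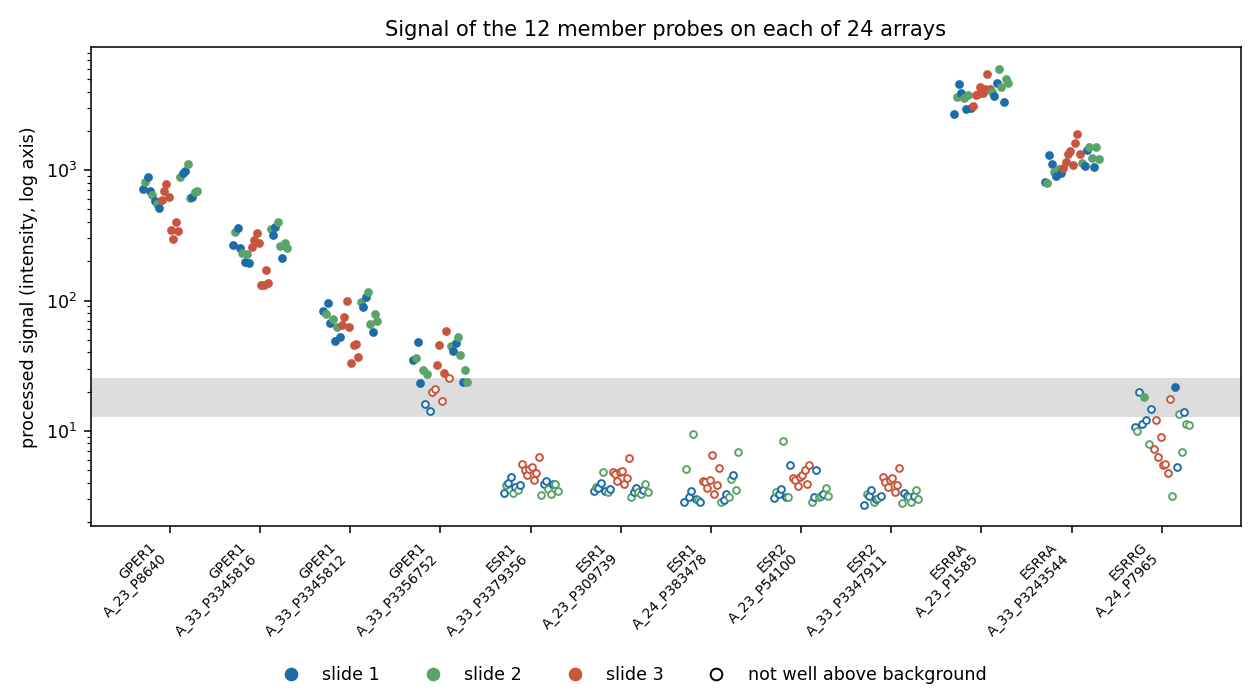
Processed signal (intensity, log axis) of the 12 probes, 1 point per array, coloured by slide. Hollow points are not well above background, and the grey band spans the lowest detected signal of the 24 arrays, from 13.0 to 24.8. The ESR1 and ESR2 points all lie below the band, and 22 of the 24 ESRRG points are hollow.

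GPER1, the membrane receptor for which G-1 was made, fell with time under G-1 1 µM. On 3 of its 4 probes the signal was 1.74-, 1.58- and 1.54-fold lower than DMSO at 72 h, while no probe passed the test against DMSO at 24 h or at the IC50 dose. The values below are log2 signals minus the 75th percentile of each array, for replicates 1 to 4. For A_23_P8640 they were 2.48, 2.25, 2.47 and 2.28 in DMSO 24 h, 2.41, 2.69, 2.84 and 2.55 in G-1 IC50 24 h, then 2.33, 2.23, 2.68 and 2.34 in G-1 1 µM 24 h. The 3 groups at 24 h overlapped. At 72 h the values were 2.08, 2.20, 2.03 and 2.12 in DMSO, 1.94, 2.15, 2.05 and 2.09 in G-1 IC50, and 1.36, 1.19, 1.39 and 1.29 in G-1 1 µM. Every G-1 1 µM array at 72 h lay below every other array of the series for this probe. By mean log2 signal the groups ran from G-1 IC50 24 h (2.62 ± 0.18, SD, n = 4) over G-1 1 µM 24 h (2.39 ± 0.20) and DMSO 24 h (2.37 ± 0.12) to DMSO 72 h (2.11 ± 0.08), G-1 IC50 72 h (2.06 ± 0.09) and lastly G-1 1 µM 72 h (1.31 ± 0.09). Between neighbours in this order, the arrays did not overlap from DMSO 24 h to DMSO 72 h and from G-1 IC50 72 h to G-1 1 µM 72 h, and they overlapped at the other steps.

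The probe A_33_P3345816, which is annotated to another GPER1 transcript record than A_23_P8640, followed the same order of 72 h groups. Its values at 72 h were 0.62, 0.65, 0.74 and 0.72 in DMSO, 0.69, 0.60, 0.75 and 0.64 in G-1 IC50, and -0.05, 0.02, 0.17 and -0.04 in G-1 1 µM. The G-1 1 µM arrays lay apart below the others. At 24 h the means were 1.01 ± 0.14 in DMSO, 1.17 ± 0.17 in G-1 IC50 and 1.18 ± 0.18 in G-1 1 µM (SD, n = 4), with overlapping arrays. A_33_P3345812 had 72 h values of -1.08, -1.35, -1.11 and -1.15 in DMSO, -1.28, -1.29, -1.05 and -1.24 in G-1 IC50, and -2.05, -1.52, -1.72 and -1.91 in G-1 1 µM, again without overlap of G-1 1 µM with the others. At 24 h its means were -0.89 ± 0.24, -0.65 ± 0.18 and -0.78 ± 0.33.

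The fourth probe, A_33_P3356752, did not show this pattern, although it is annotated to the same transcript record as A_33_P3345816 and A_33_P3345812. Its 72 h values were -2.37, -2.96, -2.31 and -3.05 in DMSO and -3.0, -2.25, -1.40 and -2.46 in G-1 1 µM, which overlapped. In each of these groups 2 of the 4 arrays were not above background, and over all 24 arrays its raw signal ran from 14.2 to 57.8. Over the 24 arrays the 3 brighter probes correlated with each other at r = 0.92 to 0.96, and with A_33_P3356752 at 0.31 to 0.44, where the points share arrays and scaling. The sequences of the probes were not used here, so the parts of the transcript they bind were not compared.

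**Figure D2:**
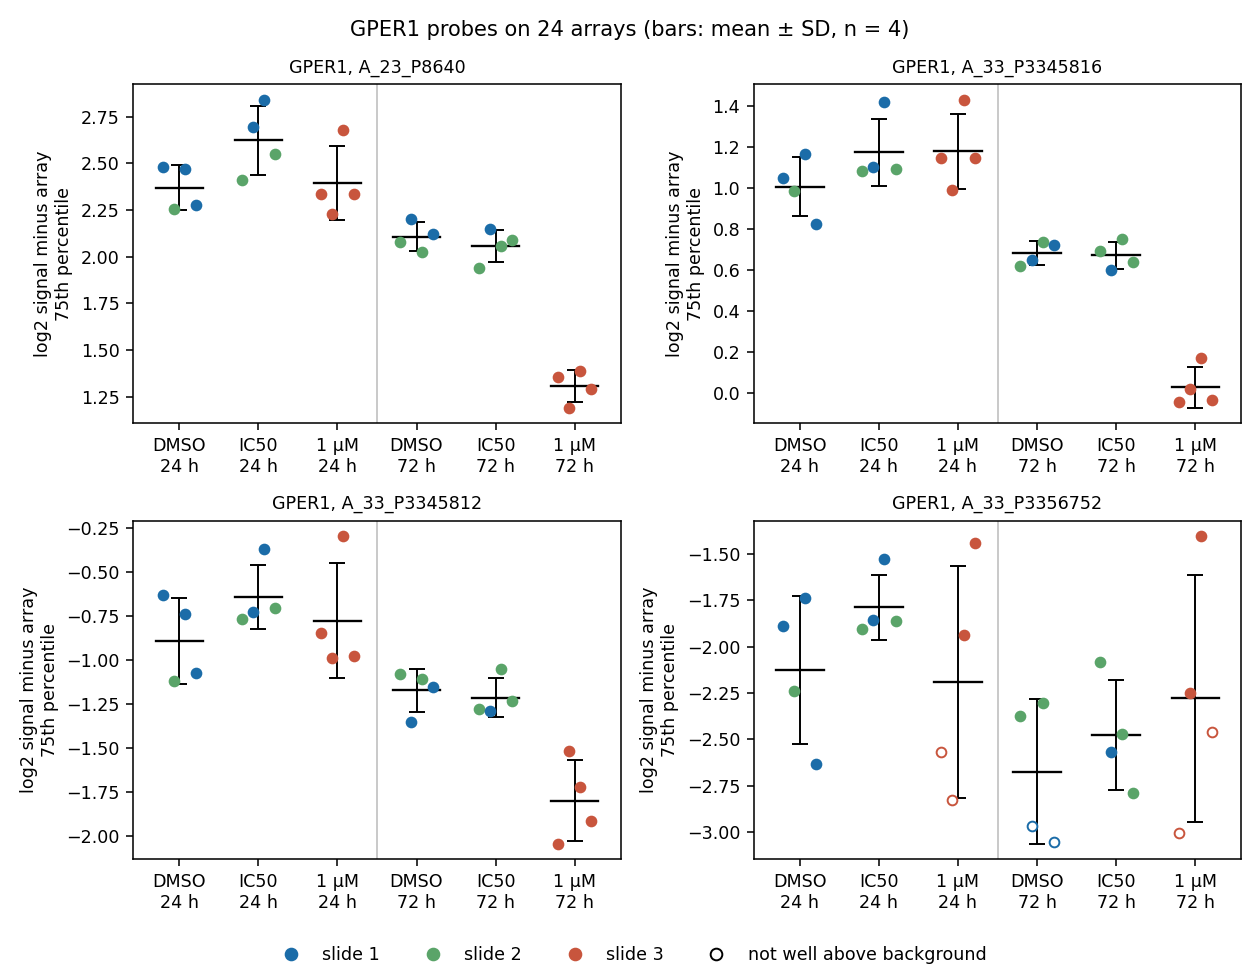
Log2 signal minus the 75th percentile of the array for the 4 GPER1 probes in the 6 groups, 1 point per array coloured by slide, with mean and SD (n = 4) and hollow points where the spot was not well above background. For the probes in the first 3 panels, the 4 arrays of G-1 1 µM 72 h lie below all others of 72 h, while for A_33_P3356752 the groups overlap.

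In the model fitted with limma to all 24 arrays, the change of GPER1 from DMSO to G-1 1 µM at 72 h was -0.80 ± 0.10 log2 (SE, adjusted p = 4.4e-07) for A_23_P8640. It was -0.66 ± 0.09 (adjusted p = 3.8e-06) for A_33_P3345816 and -0.63 ± 0.15 (adjusted p = 0.00093) for A_33_P3345812. For A_33_P3356752 it was 0.39 ± 0.30 (adjusted p = 0.264), with a 95% confidence interval from -0.24 to 1.03. None reached an absolute fold change of 2. Together with both ESRRA probes, 5 of the 6 probes passed (adjusted p under 0.05), where 64.3% of all 22970 tested probes did, so passing here does not set GPER1 apart. By size of change, the 4 GPER1 probes stood within the upper 21.7%, 30.2%, 32.1% and 52.2% of all tested probes. With normexp background correction, the values of A_33_P3345816 and A_33_P3345812 moved to -0.38 and -0.25 and still passed.

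At 24 h under G-1 1 µM, the GPER1 changes against DMSO were 0.02, 0.17, 0.12 and -0.07 log2 in the order of the probes above, and 0 of the 4 passed in limma, with or without adjustment, or with the methods' t-test, against 29.7% of all probes. The confidence interval for A_23_P8640 ran from -0.18 to 0.22. Replicate numbers deviated together between these groups, and in the fit with the replicate number as a block the change of A_33_P3345816 (0.17 ± 0.06) passed at an adjusted p of 0.0469.

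The difference between the durations was tested directly. The duration interaction of G-1 1 µM was -0.83 ± 0.14 log2 for A_23_P8640 (adjusted p = 0.00012 in limma), -0.83 ± 0.13 for A_33_P3345816 (adjusted p = 8.1e-05) and -0.74 ± 0.21 for A_33_P3345812 (adjusted p = 0.0101). For A_33_P3356752 it was 0.46 ± 0.43 (adjusted p = 0.448). Thus 3 of 6 member probes passed, all of GPER1 and read on the same arrays, against 30.9% of all probes.

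Within G-1 1 µM, where all 8 arrays share a slide, GPER1 was 2.13-, 2.22- and 2.03-fold lower at 72 h than at 24 h on the first 3 probes. These changes were -1.09 ± 0.10, -1.15 ± 0.09 and -1.02 ± 0.15 log2 (adjusted p = 2.5e-08, 7.0e-09 and 1.3e-05 in limma), and the arrays of the durations did not overlap. With normexp correction they were -0.92, -0.82 and -0.46, which still passed but were below 2-fold. A_33_P3356752 changed by -0.09 ± 0.30 (adjusted p = 0.849). In this comparison 3 of 6 member probes passed, all of GPER1 and read on the same arrays, against 39.7% of all probes. This contrast, and the same one within G-1 IC50, was added after the data had been seen.

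Without 1 µM G-1, the 3 brighter probes gave differences of the same sign and smaller size, while A_33_P3356752 gave larger ones. In DMSO, the 72 h values minus the 24 h values were -0.26 ± 0.10, -0.33 ± 0.09, -0.28 ± 0.15 and -0.55 ± 0.30 log2 for the 4 probes. The arrays did not overlap for A_23_P8640 and A_33_P3345816, but 0 of 6 member probes passed in limma (adjusted p = 0.150, 0.0602, 0.331 and 0.361 for GPER1), where 2.85% of all probes did. At an unadjusted p under 0.05, 2 of 6 did so in limma and 2 of 6 with the methods' t-test. Within slide 1 the 4 probes differed by -0.25, -0.33, -0.44 and -0.92, and within slide 2 by -0.20, -0.31, 0.03 and -0.10, so the third turned sign between slides. Under G-1 IC50, the 72 h minus 24 h changes were -0.57 ± 0.10, -0.50 ± 0.09, -0.57 ± 0.15 and -0.69 ± 0.30. The first 3 passed in limma (adjusted p = 0.0015, 0.0030 and 0.0313), that is 3 of 6 probes against 3.74% of all. These 3 probes read 1 gene on the same arrays, so they do not count as separate results. None of the 3 passed with the methods' t-test after adjustment (adjusted p = 0.0977, 0.0942 and 0.103). The 4 arrays of 72 h lay below those of 24 h for all 4 probes. The value of A_33_P3345812 no longer passed without G-1 IC50 24 h replicate 2, 3 or 4 (-0.60, -0.48 and -0.59) or without G-1 IC50 72 h replicate 1, 2 or 4 (-0.55, -0.55 and -0.56).

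At the IC50 dose itself no GPER1 probe passed against DMSO. At 24 h the changes were 0.25, 0.17, 0.25 and 0.34 log2, with a 95% confidence interval from 0.05 to 0.45 for A_23_P8640 (adjusted p = 0.812). At 72 h they were -0.05, -0.01, -0.04 and 0.20, with an interval from -0.25 to 0.15 for A_23_P8640. Of the 6 member probes, 0 passed at 24 h and 0 at 72 h in limma, against 0.192% and 0.688% of all probes. At an unadjusted p under 0.05, 1 of 6 did so at 24 h and 0 at 72 h in limma, and 0 at both with the methods' t-test. The IC50 duration interaction was -0.30, -0.18, -0.29 and -0.14 (0 of 6 passed in limma, 1 of 6 at an unadjusted p under 0.05), where 0.00871% of all probes passed. Within slides 1 and 2, the 24 h change of A_23_P8640 was 0.36 and 0.23.

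Between the doses, GPER1 was lower with 1 µM than with the IC50 dose at 72 h by -0.75 ± 0.10, -0.64 ± 0.09 and -0.58 ± 0.15 log2 (adjusted p = 1.2e-06, 5.1e-06 and 0.0017 in limma), without overlap of the arrays. With normexp correction A_33_P3345816 and A_33_P3345812 were at -0.39 and -0.21 and still passed. For A_33_P3356752 the difference was 0.20 ± 0.30 (adjusted p = 0.584). This made 3 of 6 member probes, against 63.4% of all probes. At 24 h the differences were -0.23, 0.00, -0.13 and -0.40, and 0 of 6 member probes passed (1 of 6 at an unadjusted p under 0.05 in limma, 0 of 6 with the methods' t-test), against 26.3% of all.

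**Figure D3:**
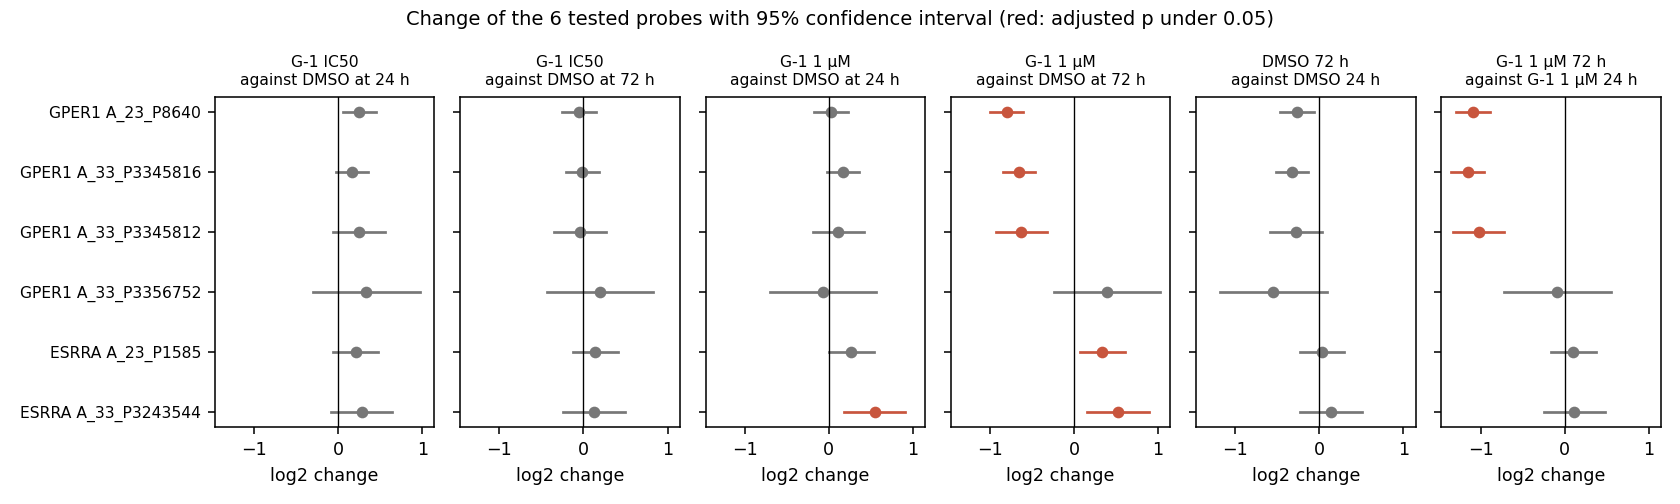
Change in log2 signal (horizontal axis, first group minus second) of the 6 tested probes in 6 comparisons, with 95% confidence intervals from limma, in red where the adjusted p was under 0.05. The 3 brighter GPER1 probes are red below 0 in the panels for G-1 1 µM at 72 h, against DMSO and against its own 24 h, and the ESRRA probes lie above 0 under G-1 1 µM.

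ESRRA, the estrogen-related receptor alpha that regulates oxidative metabolism, was higher under G-1 1 µM than in DMSO at 72 h on both probes and at 24 h on 1 of 2, by less than 2-fold. For A_33_P3243544 the values at 24 h were 2.67, 2.23, 3.03 and 2.97 in DMSO, 2.76, 2.86, 3.38 and 3.00 in G-1 IC50, and 3.15, 2.96, 3.46 and 3.51 in G-1 1 µM. The DMSO and G-1 1 µM arrays overlapped. At 72 h they were 2.67, 2.84, 2.91 and 3.01 in DMSO, 2.94, 2.91, 3.21 and 2.89 in G-1 IC50, and 3.01, 3.63, 3.64 and 3.25 in G-1 1 µM, where the highest DMSO and the lowest G-1 1 µM array nearly met. For A_23_P1585 the 24 h values were 4.40, 4.44, 4.84 and 4.78 in DMSO, 4.58, 4.66, 5.08 and 4.98 in G-1 IC50, and 4.74, 4.68, 4.96 and 5.12 in G-1 1 µM, which overlapped. The 72 h values were 4.55, 4.55, 4.80 and 4.67 in DMSO, 4.76, 4.59, 4.94 and 4.84 in G-1 IC50, and 4.85, 4.99, 5.16 and 4.92 in G-1 1 µM. Here too the lowest G-1 1 µM array lay just above the highest DMSO array. On both probes the order of the means was G-1 1 µM 72 h, G-1 1 µM 24 h, G-1 IC50 24 h, G-1 IC50 72 h, DMSO 72 h and DMSO 24 h, and each neighbouring pair overlapped.

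The change of ESRRA from DMSO to G-1 1 µM at 24 h was 0.54 ± 0.18 log2 (1.46-fold, adjusted p = 0.0252 in limma) for A_33_P3243544 and 0.27 ± 0.13 (adjusted p = 0.120) for A_23_P1585. This was the 1 member probe of 6 that passed at 24 h, against 29.7% of all probes. With the replicate number as a block both passed (adjusted p = 0.0055 and 0.0103). The call for A_33_P3243544 was lost without DMSO 24 h replicate 1 or 2 and without G-1 1 µM 24 h replicate 3 or 4, with values from 0.38 to 0.53. At 72 h the changes were 0.53 ± 0.18 (1.44-fold, adjusted p = 0.0132) and 0.34 ± 0.13 (1.26-fold, adjusted p = 0.0259). Of all tested probes, 64.3% passed at 72 h, and 40.0% and 58.3% changed at least as much as these probes, so neither value sets ESRRA apart. The call for A_23_P1585 was lost without DMSO 72 h replicate 1 or 2 and without G-1 1 µM 72 h replicate 3 (0.31, 0.31 and 0.28).

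The duration interaction of G-1 1 µM passed for neither ESRRA probe (0.07 and -0.02 log2, intervals from -0.31 to 0.45 and from -0.54 to 0.50). At the IC50 dose the changes against DMSO were 0.21 and 0.28 at 24 h and 0.14 and 0.13 at 72 h, and none passed. The differences between 1 µM and the IC50 dose at 72 h, 0.20 (adjusted p = 0.183) and 0.40 (adjusted p = 0.0555), did not pass either. From 24 h to 72 h in DMSO the changes were 0.03 and 0.13. The 2 probes correlated at r = 0.88 over the 24 arrays.

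**Figure D4:**
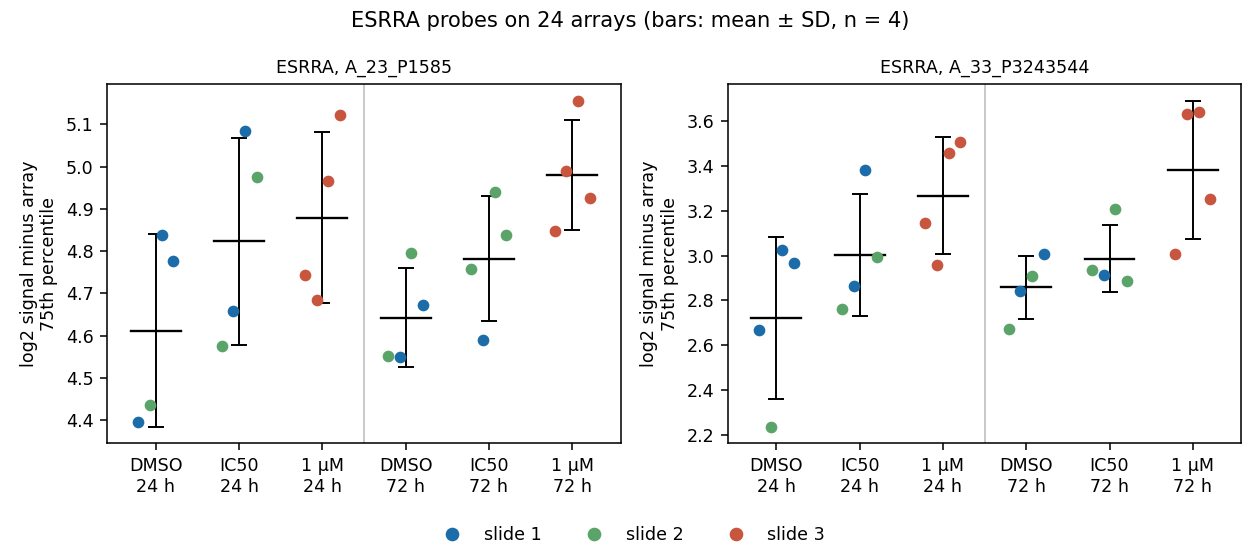
Log2 signal minus the 75th percentile of the array for the 2 ESRRA probes in the 6 groups, 1 point per array coloured by slide, with mean and SD (n = 4). At 72 h the G-1 1 µM arrays lie above the DMSO arrays on both probes by a narrow margin, and the G-1 IC50 arrays lie between or among them.

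Markers of glial, neuronal and myelin-forming cells moved in the same comparison, G-1 1 µM against DMSO at 72 h, where 35.2% of all genes were higher and 31.0% lower. Of 9 glial markers 1 was higher and 7 lower, and of 3 neuron markers 1 was higher and 2 lower. The myelin gene MBP changed by -0.58 ± 0.14 log2, and MOG by -1.02 ± 0.22 with 1 of 4 arrays of G-1 1 µM above background. The size for MOG rests in part on undetected spots. The scaled signals of the 9 glial and glioma markers were also summed without logarithm, where the brightest probes weigh most. The sum ranged from 1549 to 1786 in DMSO 72 h and from 1130 to 1310 in G-1 1 µM 72 h. Singly, GFAP changed by -2.71 log2 and S100B by -1.96, and the share of each gene in the sum was not examined. The sum of the 3 neuron markers ranged from 7.09 to 10.4 and from 4.11 to 5.03. At 24 h 1 glial marker was higher, by over 2-fold, and 1 lower, and of the neuron markers 0 were higher and 2 lower. Over all genes, 20.0% were higher and 10.5% lower at 24 h. The glial sums overlapped at 24 h (1508 to 1702 in DMSO, 1434 to 1933 in G-1 1 µM), while those of the neuron markers ranged from 6.19 to 9.79 and from 4.20 to 5.76. Their part in the GPER1 and ESRRA results was not tested. In such bulk RNA, fewer cells with a transcript and less transcript per cell cannot be told apart.

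The genes whose signals ran most like the 3 brighter GPER1 probes over the 24 arrays, among 14234 genes, were AGPAT4, KIRREL3 and NEFL, at Pearson r between 0.89 and 0.98. AGPAT4 acylates lysophosphatidic acid, KIRREL3 is a synaptic adhesion protein, and NEFL is the light chain of neurofilaments. DACH1, COL21A1, PLEKHG4, PREP and MAGED2 completed the 5 closest of these probes. Within the groups, after subtracting group means, AGPAT4 correlated at 0.76, 0.52 and 0.50 with the 3 brighter probes, and KIRREL3 at 0.75, 0.45 and 0.29. AGPAT4, KIRREL3 and NEFL changed by -0.64, -0.59 and -0.53 log2 from DMSO to G-1 1 µM at 72 h. They were picked for likeness over these same arrays, so changes of the same sign follow largely from that choice. For A_33_P3356752 the closest genes were SLC6A13, CEL, CUEDC1, PLEKHF1 and TCEA3, at 0.60 to 0.68. For ESRRA they were TSPAN14, CYP51A1, HSD17B7, TNFRSF21 and DHRS2 with A_23_P1585 (0.82 to 0.89), and NUDCD3, ARHGAP10, EGLN2, PIP4P1 and ELOVL1 with A_33_P3243544 (0.90 to 0.92). CYP51A1 and HSD17B7 are enzymes of cholesterol synthesis. All these values share the arrays and their scaling.

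Around the receptors, 9 lists of 158 genes were followed, each gene by its brightest probe, and 129 could be tested. At the IC50 dose 0 of 129 passed at 24 h in limma (9 at an unadjusted p under 0.05, and 7 with the methods' t-test) and 2 at 72 h. Over all 14235 genes, 0.218% were higher and 0.0281% lower at 24 h, and 0.429% and 0.478% at 72 h. Those that passed at 72 h were PDK4, a kinase that limits pyruvate oxidation and a known target of the estrogen-related receptors, at 1.82 ± 0.22 log2 (adjusted p = 0.00015), and PPARGC1B, a PGC-1 coactivator, at -0.55 ± 0.12 (adjusted p = 0.0425). Under G-1 1 µM, 41 of 129 passed at 24 h and 84 at 72 h. Over all genes, 20.0% were higher and 10.5% lower at 24 h, and 35.2% and 31.0% at 72 h. The counts of each list below are to be read against these shares.

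Of the 25 tested signalling partners of GPER1, 5 were higher and 0 lower at 24 h under 1 µM, and 8 were higher and 7 lower at 72 h. The median change was 0.09 and -0.04 log2, where that of all genes was 0.04 and 0.03. HBEGF, the EGF-like ligand released on GPER1 activation, was higher by 1.1 ± 0.17 at 24 h and 2.12 ± 0.17 at 72 h (adjusted p = 0.00017 and 2.1e-09). MMP9, a gelatinase, was higher by 1.18 ± 0.29 at 72 h, with 2 of 4 DMSO arrays above background. At 24 h it did not pass (adjusted p = 0.246 in limma). It was above background on 4 of 4 DMSO and 0 of 4 G-1 1 µM arrays, but the lowest detected signal was higher on slide 3. The DMSO mean (-2.86 log2 after scaling) lay below the mean detection limit of the G-1 1 µM arrays (-2.72). These detection counts therefore do not show a fall. EGFR changed by -0.22 ± 0.07 and GNAI2, an inhibitory G protein subunit, by -0.34 ± 0.07 at 72 h. RAMP3, which binds GPER1, was detected on 0 of 24 arrays.

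Of 7 tested genes known to respond to GPER1 agonists, 5 were higher at 24 h, and 4 were higher and 2 lower at 72 h (median 0.58 and 0.55 log2). The immediate early genes EGR1 and FOS were higher at 24 h, by 1.37 ± 0.25 and 1.11 ± 0.21. At 72 h EGR1 was higher by 0.81 ± 0.25. CCN2, a matricellular growth factor, was higher by 1.61 ± 0.16 at 72 h, and CEBPD, a transcription factor of the CCAAT enhancer-binding family, changed by -1.25 ± 0.07 (adjusted p = 2.9e-11).

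Of 11 tested genes of estrogen synthesis and clearance, 2 were higher and 1 lower at 24 h under 1 µM, and 2 were higher and 5 lower at 72 h, with medians of 0.06 and -0.08 log2. CYP19A1, the aromatase that makes estrogens from androgens, changed by -0.60 ± 0.18 at 24 h and -1.95 ± 0.18 at 72 h (adjusted p = 0.0142 and 8.3e-09). HSD17B14, which oxidizes estradiol, changed by -1.11 ± 0.13 and HSD17B1, which reduces estrone to estradiol, by -0.76 ± 0.07 at 72 h. HSD17B7, which acts in estradiol and cholesterol synthesis, was higher by 0.53 ± 0.12.

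Chaperones of steroid receptors were higher on 5 of 9 at 24 h and 7 of 9 at 72 h, and lower on 0 (median 0.28 and 0.63 log2). HSP90AB1, an HSP90 isoform, was higher by 0.85 ± 0.07 and STIP1, which links HSP70 with HSP90, by 0.88 ± 0.08 at 72 h. Of 21 coregulators, 7 were higher and 0 lower at 24 h, and 10 were higher and 4 lower at 72 h (median 0.06 and 0.15). CARM1, an arginine methyltransferase coactivator, was higher by 0.52 ± 0.06 and 0.64 ± 0.06, and DDX17, an RNA helicase coactivator, changed by -0.89 ± 0.09 at 72 h.

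Among 21 known target genes of ESR1, which itself was not detected, 11 could be tested, and GREB1, PGR, TFF3, PDZK1, RET and AREG were detected on 0 of 24 arrays. Under 1 µM, 2 were higher and 2 lower at 24 h, and 4 were higher and 3 lower at 72 h (median 0.13 and 0.03 log2). MYC and CCND1, drivers of proliferation that many other factors also regulate, were higher by 1.98 ± 0.15 and 1.72 ± 0.16 at 72 h. TFF1, a secreted trefoil peptide, was well above background on none of the 8 arrays of G-1 1 µM and on all others. By an approximate bound it was 1.27-fold lower or more at 24 h and 1.24-fold or more at 72 h (adjusted p = 0.0020 and 0.00028 in limma). These bounds set the mean of DMSO against the higher of the lowest detected signal and the probe's own value on each G-1 1 µM array. They are not strict, since undetected spots can lie above that signal (ESRRG at 19.7 against 14.9 on DMSO 24 h replicate 3). All 8 arrays are on slide 3, where the lowest detected signal ran from 16.1 to 24.8, against 13.0 to 16.6 on the others. KRT19, a keratin, changed by -1.75 ± 0.20 at 72 h, with 1 of 4 G-1 1 µM arrays above background. This size rests in part on undetected spots.

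Of 13 target genes of the estrogen-related receptors, 4 were higher and 0 lower at 24 h, and 5 were higher and 4 lower at 72 h under 1 µM (median 0.13 log2 at both). PDK4 was higher by 1.45 ± 0.22 and CYCS, the cytochrome c gene, by 0.98 ± 0.09 at 72 h. SDHA, a subunit of succinate dehydrogenase, changed by -0.46 ± 0.08. Of the 4 coactivators, PPRC1 was higher by 0.88 ± 0.09 and PERM1, a muscle regulator, changed by -1.77 ± 0.26 at 72 h. PERM1 had 1 of 4 G-1 1 µM arrays above background, so its size rests in part on undetected spots. The counts were 1 higher and 1 lower at 24 h, and 2 higher and 1 lower at 72 h (median 0.05 and 0.26).

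Of 43 other nuclear receptors, 29 could be tested, with 4 higher and 2 lower at 24 h, and 7 higher and 9 lower at 72 h under 1 µM (median 0.01 and -0.04 log2). VDR, the vitamin D receptor, was higher by 1.88 ± 0.16, RORA, a clock regulator, by 1.22 ± 0.30 and NR4A3, an early response receptor, by 1.18 ± 0.22 at 72 h. THRA, a thyroid hormone receptor, changed by -1.47 ± 0.13 and NR2F1, a developmental regulator, by -1.03 ± 0.12. As with GPER1, each of these values compares a slide of the second session with slides of the first.

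**Figure D5:**
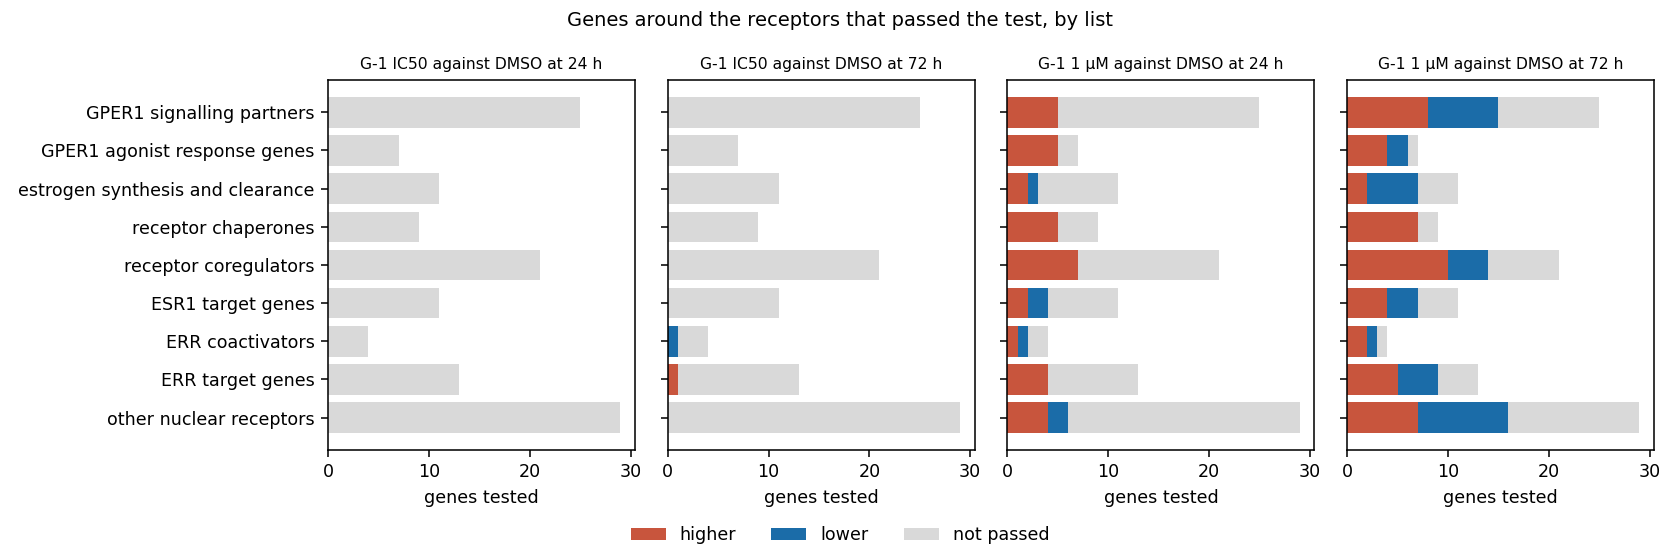
Number of tested genes (horizontal axis) in each of 9 lists that were higher (red), lower (blue) or did not pass (grey) at an adjusted p under 0.05 in the 4 comparisons of G-1 with DMSO. At the IC50 dose 0 genes passed at 24 h and 2 at 72 h, against 41 and 84 of 129 at 1 µM.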

How the data were processed

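U251 RNA was labelled with Cy3 and hybridized to Agilent SurePrint arrays. The authors deposited processed fluorescence intensity values per spot (background-subtracted and detrended by Agilent Feature Extraction, version 10.7.3.1 per the processing notes), with median signal and background intensity, and flags for detection. They also deposited a log2 table, which matched the values below after centring each probe on its median (largest difference 0.011 log2).

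Outlier spots were left out, spots of a probe averaged as log2, and the 75th percentile of each array subtracted. Probes were named through RefSeq accessions (35032 matched), those without a value on some array (83) dropped, and 22970 detected on all 4 arrays of at least 1 group tested. One model with 6 group means was fitted with limma 3.58.1 in R 4.3.3 and adjusted by Benjamini-Hochberg over these probes. A change passed at an adjusted p under 0.05. The text names each member probe, per list up to 6 genes also above 2-fold or else those with the smallest p (others were named after their values were seen), and the 5 most alike genes of each tested probe. The members and lists were chosen with earlier results of these data known. The fit was tested on simulated data. The summed result of 1 marker list is not reported here.

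Depth has no meaning for arrays, whose number limits the precision. Replicates of a group correlated at 0.990 to 0.996. Replicate numbers deviated together (every correlation over 0.1, from 0.17 to 0.28) for the 24 h groups of G-1 1 µM and DMSO, and (from 0.20 to 0.31) for those of both G-1 doses. The same number correlated best for 3 of 4 replicates in the first pair and for 2 of 4 in the second. Matching by number was thus incomplete. In each of 7 other pairs of groups at least 1 correlation was not over 0.1. However, 3 of 4 were over 0.1 between G-1 IC50 and DMSO, from -0.11 to 0.39 at 24 h and from 0.05 to 0.48 at 72 h. The same held for 72 h against 24 h within G-1 IC50 (0.07 to 0.53). In that pair, and between G-1 IC50 and DMSO at 72 h, the same number correlated best for 3 of 4 replicates. Replicates may thus be partly matched there too. Between G-1 IC50 and DMSO at 24 h it correlated best for 0 of 4, so matching was not shown for that pair. The fit with the number as a block stands beside the values of the 24 h pairs with G-1 1 µM where it changed a call. Alternatives were quantile and 50th percentile scaling, normexp correction (offset 50), other filters, the deposited table, fewer arrays, an intensity trend, replicate and slide blocks, the methods' t-test and each array left out.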

Additional observations from a re-analysis of the deposited data

Results flagged for a closer look

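On GPER1, G-1 IC50 24 h replicate 3 was the highest array of its group on all 4 probes and stood apart on 3, with a gap to the next array of 0.950 of the group's range for A_33_P3345816 (log2 signal 1.42), 0.831 for A_33_P3345812 (-0.37) and 0.862 for A_33_P3356752 (-1.53). On ESRRA, G-1 IC50 72 h replicate 3 was the highest for A_33_P3243544 (3.21), with a gap of 0.854 of the range. These are 4 of 36 groups of 4 arrays examined, where chance marks about 1 in 20, and probes of a gene are read on the same arrays.

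The effect of G-1 1 µM on GPER1 differed between 24 h and 72 h by the interaction test in limma for 3 probes, at -0.83 (A_23_P8640), -0.83 (A_33_P3345816) and -0.74 log2 (A_33_P3345812). With each of the 16 arrays of this contrast left out in turn, the values stayed between -0.88 and -0.73, -0.89 and -0.74, and -0.83 and -0.58, and passed.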

How the results depend on the processing

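For GPER1, the falls under G-1 1 µM at 72 h against DMSO and against the IC50 dose, and from 24 h to 72 h within G-1 1 µM, passed on 3 probes under all alternatives run. The interaction did so except for A_33_P3345812 with normexp correction (-0.30, adjusted p = 0.0699). No passed value changed sign. The count of member probes for the 24 h groups of G-1 1 µM and DMSO (1) was 0 with the 50th percentile, with the arrays of the comparison alone and with the methods' t-test, adjusted or not, 3 with the replicate block, and 0 to 1 with an array left out. For DMSO 72 h against 24 h (0) it was 1 with normexp correction, with only probes above background on all arrays and with the replicate block, 2 with the methods' t-test unadjusted, and 0 to 1 with an array left out. For the doses at 24 h (0) it was 1 with quantile, 50th percentile or normexp settings and 0 to 1 with an array left out, and at 72 h (3) it was 5 with the replicate block, where both ESRRA probes passed (adjusted p = 0.0253 and 0.0159), and 4 with only probes above background on all arrays or an intensity trend. The replicate block changed no other count of member probes. The ESRRA probe A_23_P1585 at 72 h did not pass with quantile (0.26), 50th percentile (0.26) or normexp (0.30) settings or without the filter (adjusted p = 0.0542). From 24 h to 72 h within G-1 IC50, none of the 3 brighter GPER1 probes passed with the methods' t-test after adjustment, and A_33_P3345812 did not pass with normexp correction (-0.29, adjusted p = 0.0610) or without the filter (adjusted p = 0.117). The cause of these changes was not tested. With a 2-fold threshold added, genes around the receptors numbered 1 at the IC50 dose at 72 h, and 4 at 24 h and 17 at 72 h under 1 µM. The share of all genes past both thresholds was not computed, so these counts cannot be read as high or low. ESR1 and ESR2 were detected on 0 of 24 arrays and ESRRG on 2, so differences between groups were not detectable.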
